A study of Mus musculus with 4 samples.

Results

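Chains of closely spaced Ring1b regions were described in C3H10T1/2 cells, which are mesenchymal progenitors from a mouse embryo. The cells carried a stably expressed histone H3.3 with a FLAG-HA tag. The tagged H3.3 was either wild type (WT) or carried the K36M substitution, in which lysine 36 is replaced by methionine. The labels name no deletion of the cells' own histone genes and no further treatment. Ring1b was profiled by ChIP-seq, in which chromatin pulled down with an antibody is sequenced, and 1 library was made from each kind of cell. A chain was a set of 3 to 9 regions on a chromosome in which each gap to the preceding region was at most 2000 bp. Of the 6371 regions of the deposited table, 1074 (16.9%) lay in 296 such chains. The remainder comprised 3349 single regions, 1390 regions in pairs and 558 regions in 10 dense runs of 10 or more. The rule used positions only, but by its name the table lists regions tied to WT peaks. A second library can lie lower at such regions through that choice alone, and the size of this effect was not tested.

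Ring1b is the catalytic subunit, a ubiquitin ligase, of the Polycomb complex PRC1, which places ubiquitin on histone H2A and compacts chromatin at repressed developmental genes. Canonical PRC1 binds H3K27 methylation laid down by PRC2, and other forms of PRC1 bind CpG islands directly. H3K36 methylation hinders PRC2, and K36M histones block the enzymes that methylate H3K36. Polycomb domains often hold a dense site of binding flanked by broader, weaker signal, and the spacing and width of listed regions in a chain give a coarse view of such a shape. Genes could not be placed, since the regions are on the mouse build mm9 and no annotation of that build was used here. Positions below are on mm9 with starts counted from 1.

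Values are reads per 1000000 reads (RPM). The deposited columns are headed RPKM but were not divided by region width, so levels are compared between regions only per kb. The 296 chains held 162180 WT and 90340 K36M reads, 15.1% of the WT and 12.5% of the K36M reads in the table. A chain had a median of 446 WT reads (74 to 2575) and 266 K36M reads (24 to 1117). Since each form has 1 library, no difference could be checked in a replicate, and tests of reads compare these libraries only. Intervals are exact (Clopper-Pearson) 95% counting intervals of the ratio of both libraries, and they cover counting error only. Medians carry order-statistic intervals taken over chains or regions, which are not replicates. Fold classes use log2((K36M + 0.1)/(WT + 0.1)), in RPM.

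Chains had lower Ring1b levels in K36M cells, and a 2-fold difference was more frequent than among all units of the table. The median chain summed to 14.9 RPM in WT (2.48 to 86.3) and 8.43 RPM in K36M (0.761 to 35.4). The median log2 ratio was -0.91 (interval -1.12 to -0.70, quartiles -1.63 and -0.30). The 4350 units obtained by joining regions, singles included, give the background. At least 1.5-fold lower sums were found in 190 chains (64.2%), against 56.4% of all units. At least 2-fold lower sums were found in 143 chains (48.3%, against 33.2%), and at least 4-fold lower sums in 33 (11.1%, against 5.63%). At least 1.5-fold higher sums were found in 5 chains (1.69%, against 0.989%). The distribution was therefore wider than that of all units at the low end, while the share of chains lower by any amount (87.5%) lay near the background of 89.1%. Most of these units are single regions, and pairs lay nearer to the chains. Of 695 pairs, 62.7% were at least 1.5-fold lower, 41.2% at least 2-fold and 8.49% at least 4-fold. Their median of -0.83 (interval -0.92 to -0.76) lay within the interval of the chains, so the larger differences were not particular to chains.

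**Figure D1:**
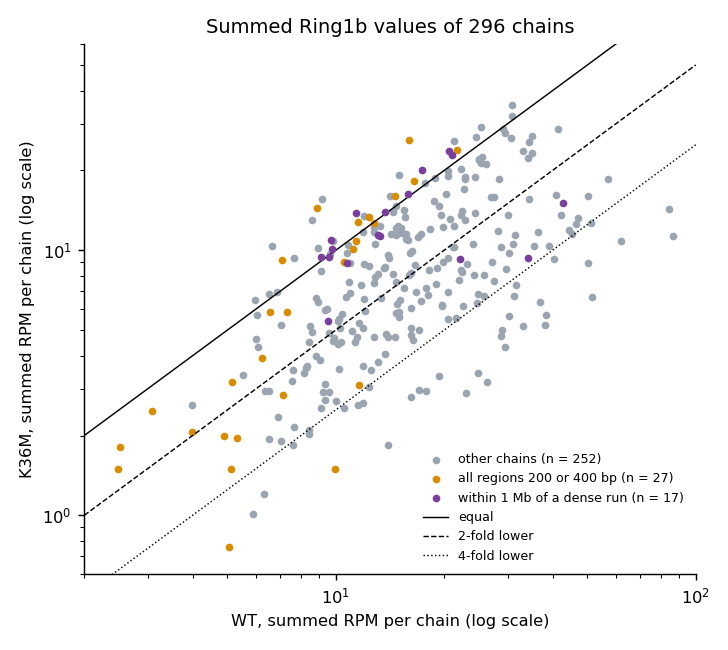
Summed Ring1b RPM of each of the 296 chains in WT (horizontal, log scale) and K36M (vertical, log scale); lines mark equal, 2-fold lower and 4-fold lower levels, and colours mark chains made only of 200-bp or 400-bp regions and chains within 1 Mb of a dense run. Most chains lie below the line of equal levels (median log2 ratio -0.91), while many of the chains near dense runs lie on it.

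Counting intervals gave the same split. The interval of the summed ratio lay wholly below 1 in 234 chains (79.1%, against 73.2% of all units) and wholly above 1 in 14 (4.73%, against 3.36%), and it included 1 in 48. By region, 927 of the 1074 members were lower in K36M by any amount (86.3%, against 85.1% of all 6371 regions), near the background. At least 1.5-fold lower were 663 (61.7%, against 53.4%). At least 2-fold lower were 509 (47.4%, against 33.5%), and at least 4-fold lower were 200 (18.6%, against 8.26%). At least 1.5-fold higher were 21 (1.96%, against 1.22%). The counting interval lay wholly below 1 in 722 (67.2%, against 65.1%) and wholly above 1 in 33 (3.07%, against 3.06%). An exact binomial test of the reads of both libraries, adjusted over all regions, called 711 members lower (background 63.8%) and 30 higher (background 2.81%). That test compares 2 libraries only, without replicates of either form. The excess of reduced members thus lay in the size of the difference more than in how often it was detectable. Members were narrower than the regions of the whole table (median 600 against 3000 bp). How far width and reads per region affected the shares called by reads was not tested. Single regions had a median log2 ratio of -0.66 and pairs, summed, of -0.83. Chains of 3 regions (194 chains) stood at -0.95, those of 4 (57 chains) at -0.69, those of 5 (25 chains) at -1.22 and those of 6 (9 chains) at -0.77, without a steady course. At the limits of the rule, 23 neighbouring pairs of regions in the table lay exactly 2000 bp apart and 19 exactly 2200 bp. The 2 chains of 9 regions had log2 ratios of -1.96 and 0.14, and the 2 runs of 10 regions had -1.35 and 0.25. When every log2 ratio was centred on the median of all regions (-0.65), 181 chains lay below and 115 above it, with a median of -0.26, and 69 were at least 2-fold lower. The share of all units at least 2-fold lower after centring was not computed, so these 69 have no background.

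How a chain compared with single regions depended on the length it covered. Among units covering 600 to 2000 bp, the 50 chains had a median log2 ratio of -0.31 (interval -0.92 to -0.13), and the 388 single regions had -1.003 (-1.10 to -0.87). Among units covering 8200 to 16000 bp, the 92 chains had -1.10 (-1.33 to -0.78) and the 763 single regions -0.53 (-0.57 to -0.48). Between these lengths, at 2200 to 4000 bp, chains (41 units, -0.66, -1.18 to -0.33) and single regions (-0.74, -0.82 to -0.66) had overlapping intervals, and 41.5% against 35.2% were at least 2-fold lower. At 4200 to 8000 bp the 64 chains stood at -1.04 (-1.21 to -0.70) and the 1044 single regions at -0.62 (-0.68 to -0.56). Chains above 4000 bp were thus further from equal levels than single regions of the same length. Below that the intervals overlapped, also at 600 to 2000 bp. Above 16000 bp the medians were -1.09 for 48 chains (-1.50 to -0.53) and -0.46 for 222 single regions, with the chain of the 3000400-bp region left out. Pairs stood at -0.80 (-0.93 to -0.65) at 4200 to 8000 bp and at -0.68 (-0.88 to -0.45) above 16000 bp. Both intervals overlapped those of the chains. At 8200 to 16000 bp pairs had -0.58 (-0.74 to -0.51), apart from the chains. At 2200 to 4000 bp, 50.0% of pairs were at least 2-fold lower. The long chains were also denser: at 8200 to 16000 bp their median density was 1.66 RPM per kb for WT and 0.805 for K36M, against 0.803 and 0.536 for single regions. The part of read density in the difference of the ratios was not tested.

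The chains had a common build that the rule did not use. Of their 1074 regions, 235 were 200 bp and 290 were 400 bp wide, here called narrow, and the others ranged up to 57800 bp, apart from 1 region of 3000400 bp at the start of chromosome 11. Both narrow and wide regions occurred in 236 chains, only narrow ones in 30 and only wide ones in 30. The most frequent order, in 87 chains, was a wide region, a narrow one and a wide one. Narrow regions held 24.2% of the WT reads and 26.2% of the K36M reads of the chains in 5.93% of their length, with the chain of the 3000400-bp region left out. Most regions touched: 598 of the 778 junctions had no gap, and every junction touched in 166 chains.

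Among the 180 junctions with a gap, 84 measured exactly 400 bp. The other gap sizes up to 2000 bp, in steps of 200 bp, occurred 7 to 15 times each. Of the 84, 66 separated 2 wide regions. So the commonest gap had the width of the commonest narrow region. Of the 290 regions of 400 bp, 119 touched wide regions on both sides. Pairs of regions showed the same size, with 132 gaps of 400 bp among 695 junctions, against 1 of 200 bp and 5 of 600 bp. Wide regions beside a 400-bp gap had a median log2 ratio of -0.78 (138 regions, interval -0.98 to -0.55), and wide regions touching a 400-bp region had -0.98 (309 regions, -1.20 to -0.86). How the borders were set is not given in the sources used here.

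**Figure D2:**
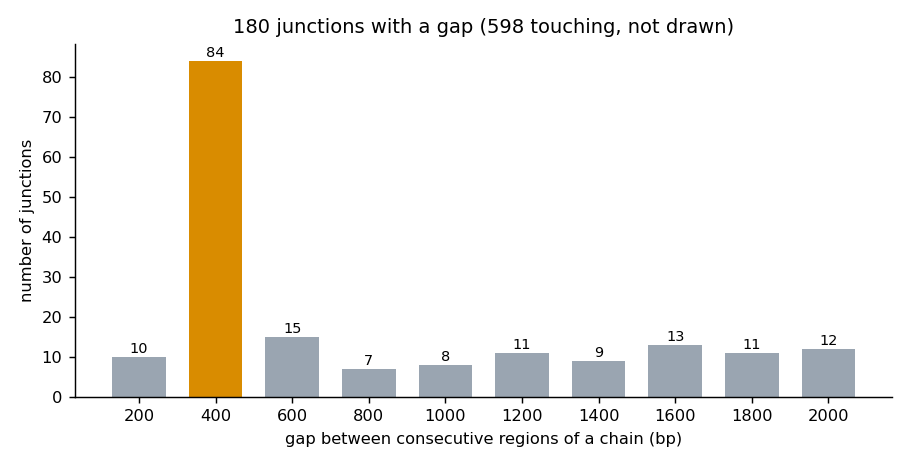
Number of junctions between consecutive regions of a chain (vertical) for each gap size from 200 to 2000 bp (horizontal); the 598 touching junctions are not drawn. The bar at 400 bp reaches 84 and the others lie between 7 and 15.

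In the median chain, inner regions were denser and more reduced than outer ones. The first and the last region of a chain by position are called edges (592 regions) and all regions between them the core (482 regions). Summed within each chain, the median WT density was 5.74 RPM per kb for the core and 1.88 for the edges. In K36M the values were 1.74 and 0.914. The core was denser than the edges in 243 of 296 chains in WT and in 230 in K36M, with a median density fold of 2.40 in WT and 1.69 in K36M. The contrast between core and edge was therefore smaller in K36M cells.

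The log2 ratio of the core was -1.16 in the median chain and that of the edges -0.81. Taken within chains, the core minus edge difference had a median of -0.32 (interval -0.42 to -0.21), and the core had the lower ratio in 210 of 296 chains. The counting interval of the ratio of core to edge ratios lay wholly below 1 in 101 chains (34.1%) and wholly above 1 in 23 (7.77%), and it included 1 in 172. Pooled over all chains, where chains with many reads count most, the K36M value was 0.512 of WT in the core and 0.536 at the edges, a log2 difference of only -0.067. The core was mostly narrow (median 400 bp summed) and the edges wide (5500 bp), so position and width move together. When the widest region was taken as the core instead, the difference turned to 0.35, and with the region of most reads as the core it was 0.13. A pseudocount of 1 in place of 0.1 reduced the difference to -0.073, while the intervals above use reads without a pseudocount.

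**Figure D3:**
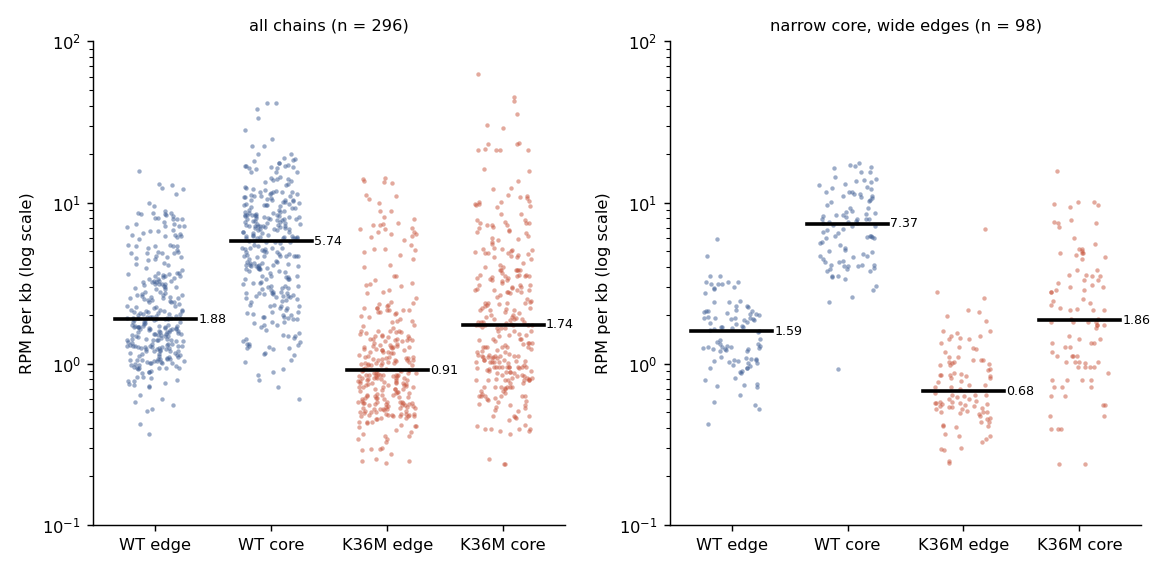
RPM per kb (vertical, log scale) of the edge and core regions of each chain in WT and K36M, for all 296 chains (left) and for the 98 chains with narrow core regions between wide edges (right); each point is a chain and bars are medians. In the right panel the WT medians are 1.59 at edges and 7.37 in cores, and the K36M medians 0.676 and 1.86; the edge of the chain with the 3000400-bp region lies below the axis.

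The difference was widest where narrow core regions lay between wide edges. In the 98 chains of this build, the median core density was 7.37 RPM per kb in the WT library and 1.86 in the K36M library, and the edges held 1.59 and 0.676. The core minus edge difference had a median of -0.59 (interval -0.76 to -0.46), and the core had the lower ratio in 86 of 98 chains. Its counting interval lay wholly below 1 in 53 and wholly above 1 in 1. With a pseudocount of 1 the median difference was -0.18. In the 27 chains of 3 wide regions the median difference was -0.09 (-0.58 to 0.37), with the core lower in 16. In the 30 chains of narrow regions only it was 0.00 (-0.13 to 0.13), with the core lower in 15. Differences between these builds were not tested.

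Width and position could be separated in part by region. Core regions of 400 bp had a median log2 ratio of -1.66 (187 regions, interval -1.88 to -1.40), and edge regions of 400 bp had -1.28 (103 regions, -1.52 to -0.67). Regions of 200 bp stood at -0.43 in the core (145) and -0.41 at edges (90). Wider regions stood at -0.93 in the core (150) and -0.84 at edges (399). The lower ratio was thus found at 400-bp regions, with a further step between core and edge that stayed within the overlap of the intervals. At least 2-fold lower were 69.5% of the 400-bp core regions and 37.2% of the 200-bp core regions, against 33.5% of all regions.

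**Figure D4:**
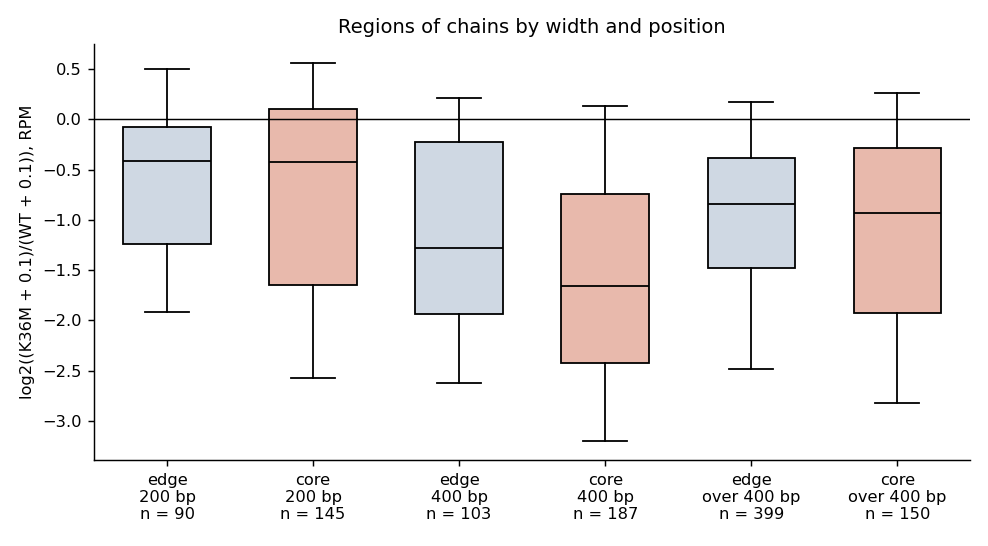
Log2 ratio of K36M to WT (vertical, RPM with 0.1 added) of the 1074 regions by width and position in the chain; boxes span the quartiles with the median, and whiskers the 5th to 95th percentiles. The 400-bp core regions have the lowest median (-1.66), and the 200-bp regions are nearest to 0.

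Regions of 400 bp with contact on both sides had the lowest median of the 400-bp regions compared. The 158 that touched a region on each side had a median log2 ratio of -1.81 (interval -2.003 to -1.55) and a median density of 7.20 RPM per kb for WT against 1.74 for K36M. The other 132 in chains had -0.98 (-1.44 to -0.61). Single 400-bp regions of the table had -1.002 (285 regions, -1.16 to -0.84) and those in pairs -1.14 (476 regions, -1.22 to -1.06). The touched regions also had the lowest median at each level of WT reads, but their intervals overlapped most of the others. With fewer than 50 WT reads, the medians were -1.52 for 25 touched regions (interval -1.74 to -1.16) and between -1.06 and -1.03 for the other groups. The interval of the 184 regions in pairs (-1.15 to -0.94) lay narrowly apart from that of the touched regions. Those of the single regions and of the others in chains overlapped it. With 50 to 99 WT reads, the touched regions stood at -1.90 (75 regions, -2.11 to -1.34), the single regions at -1.07 (167 regions, -1.33 to -0.87), those in pairs at -1.20 (-1.39 to -1.06) and the others in chains at -0.84 (-1.52 to -0.38). With 100 or more WT reads, the values were -2.08 (58 regions, -2.44 to -1.55), -0.34 (16 regions, -0.61 to 0.14), -1.38 (-1.77 to -1.05) and -0.90 (-1.85 to -0.27). With 50 or more WT reads, only the single regions had intervals apart from those of the touched regions.

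The regions of a chain varied among themselves in size and, in a smaller part of the chains, in direction. Every region was lower in K36M in 223 of 296 chains (75.3%) and every region higher in 7, and 66 chains were mixed. Among the pairs of the table, every region was lower in 83.9%. Chains hold more regions than pairs, which by itself can lower this share, and the size of that effect was not tested. The range from the lowest to the highest log2 ratio within a chain had a median of 0.87 (quartiles 0.57 and 1.33). In 131 chains (44.3%) at least 1 pair of regions had counting intervals that did not overlap. Such a pair is more likely in chains with more regions or more reads, and no background share was computed. Only 4 chains held both a region whose interval lay wholly below 1 and a region whose interval lay wholly above 1. The densest region of a chain was the same in both libraries in 221 chains, and it lay in the core in 222 chains in WT and in 196 in K36M.

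Read density was more even along the chains in K36M. The densest region of a chain held a median of 4.62 times the density of its sparsest region in WT (interval 4.02 to 5.45) and 2.91 times in K36M (2.58 to 3.25), and the spread was smaller in K36M in 230 of 296 chains. The 33 chains at least 4-fold lower, chosen by their ratio and given as a description, show the levels reached. The quartiles of density over their 131 regions were 2.74 and 7.998 RPM per kb in the WT library and 0.476 and 1.08 in the K36M library. The upper quartile was 2.92 times the lower in WT and 2.27 times in K36M, against 4.44 and 4.55 times over all 1074 regions. These quartiles pool regions of different chains. Within the 33 chains, the densest region held a median of 3.26 times the density of the sparsest in WT and 2.17 times in K36M. The spread was smaller in K36M in 26 of the 33. The fall in level is required by the choice of these chains. Values include background reads; the input libraries were not analysed here, and how near 0.476 to 1.08 RPM per kb lies to background was not tested.

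The chain with the highest WT sum was chr2:94014601-94037600, with 8 regions and 86.3 RPM in WT against 11.3 RPM in K36M (2575 and 356 reads). This is 7.64-fold lower, with an interval of 6.84 to 8.56. Its first region, 9000 bp wide, held 4.52 RPM per kb (WT) against 0.757 (K36M). The second, 9200 bp wide, was far sparser, with 0.532 and 0.0965 RPM per kb. The next 5 regions, 400 to 800 bp wide, held between 6.20 and 18.8 RPM per kb in WT and between 0.396 and 1.74 in K36M, and the last, of 1600 bp, held 8.29 and 0.892. All 8 were lower in K36M, with log2 ratios from -2.34 in the sparse region to -3.67 in an 800-bp region of the core. A second chain lay 28800 bp further on, at chr2:94066401-94074800, with a log2 ratio of -2.65.

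**Figure D5:**
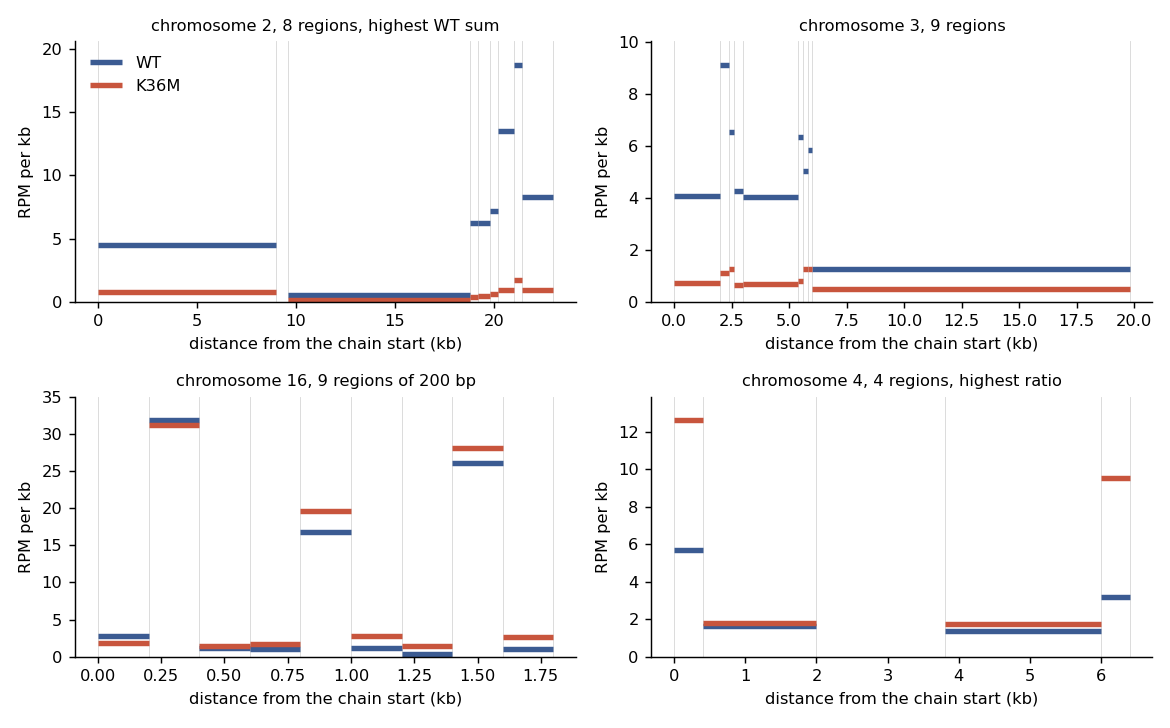
RPM per kb (vertical) of each region of 4 chains along the distance from the chain start in kb (horizontal), in WT and K36M; thin lines mark region borders. In the chains on chromosomes 2 and 3 the narrow regions reach 18.8 and 9.13 RPM per kb in WT and at most 1.74 and 1.27 in K36M, the 3 tall regions on chromosome 16 are nearly equal in both libraries, and on chromosome 4 the 2 outer 400-bp regions are higher in K36M.

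The 6 chains with the lowest ratios were 7.30-fold to 8.29-fold lower. The lowest was chr2:73107401-73114400, with a WT sum of 26.3 RPM and a K36M sum of 3.17 RPM (8.29-fold, interval 6.72 to 10.3). Its 5400-bp, 400-bp and 1200-bp regions fell by 1.81, 3.09 and 4.13 on the log2 scale. The reduction was smallest in the first region, and the counting intervals of the 400-bp and 1200-bp regions overlapped. In the 1200-bp edge region 462 WT reads stood against 25 K36M reads. At chr14:23446601-23452400 (7.98-fold, interval 6.40 to 10.0), the 2 regions of 400 bp had log2 ratios of -3.90 and -3.47, and the 1400-bp and 800-bp core regions had -1.74 and -1.34. At chr12:73995401-74011000 (7.71-fold, 6.68 to 8.95) the order of widths was reversed: a 13600-bp core of 49.4 RPM (WT) and 6.34 RPM (K36M) lay between 200-bp edges of 0.804 and 1.34 RPM in WT. Its core minus edge difference was -0.62, with an interval of the ratio of ratios (0.404 to 1.69) that includes 1.

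In the other 2 of these 6 chains, a core region had the lowest ratio. At chr4:93721001-93724400 (7.62-fold lower, 5.78 to 10.2), a 400-bp core of 138 WT and 6 K36M reads had a log2 ratio of -4.02 between edges at -0.89 and -3.31. The range of 3.13 was the widest of the 296 chains, although the intervals of the core and the last edge overlapped. At chr2:146911801-146921000 (7.30-fold lower, 6.20 to 8.65), a 1200-bp core region had -3.98, its 2 touching 400-bp neighbours had -2.89 and -3.02, and the 5400-bp edge had -1.65. The edges of that chain held 1.69 RPM per kb in WT, and its core held 8.35.

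The 6 highest WT sums included the chains at chr2:94014601 and chr12:73995401 and 4 others, which were 3.08-fold to 5.86-fold lower in K36M. At chr14:122872601-122899000, the sums were 84.2 RPM (WT) and 14.4 RPM (K36M), which is 5.86-fold lower (5.30 to 6.50), and a 400-bp region of 94 WT and 8 K36M reads between wide edges had the lowest ratio of the chain. At chr1:157575201-157596800 (61.9 against 10.9 RPM, 5.70-fold lower, 5.07 to 6.41) all 3 regions were wide, and their log2 ratios lay within 0.64 of each other. At chr13:95633601-95658600 (51.3 against 12.7 RPM) the level was 4.03-fold lower. At chr18:81169001-81202200 (57.0 against 18.5 RPM) it was 3.08-fold lower (2.80 to 3.39), with core regions from -2.19 to -1.85 and a 15800-bp edge of 0.649 RPM per kb in WT at -0.58. The 400-bp core at chr16:25973001-25985200, a chain with one of the 4 largest ranges, had 172 WT and 11 K36M reads (log2 ratio -3.71), and its wide edges had -1.97 and -1.12.

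Both chains of 9 regions had a repeated build, but the one on chromosome 3 was lower in K36M and the one on chromosome 16 near equal. At chr3:96185801-96205600, 3 narrow regions lay between the first and second wide region and 3 more between that one and the last wide region. Its WT sum of 45.2 RPM was 3.93-fold (3.49 to 4.42) the K36M sum of 11.5 RPM. The wide regions fell from 4.09, 4.02 and 1.25 RPM per kb in WT to 0.697, 0.674 and 0.498 in K36M. Another chain, chr3:96150201-96156200, lay 29600 bp before it with a log2 ratio of -2.57. At chr16:3114801-3116600, all 9 regions were 200 bp wide and touched. The tall ones, in second, 5th and 8th place, held 31.8, 16.8 and 26.1 RPM per kb (WT) and nearly the same, 31.2, 19.7 and 28.1, with K36M. The 6 between and beside them held at most 2.85 in either library, so that the signal stood in 3 spikes 600 bp apart. The summed ratio was 1.11, with an interval of 0.979 to 1.25 that includes 1.

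The 6 chains with the highest ratios were 1.29-fold to 1.70-fold higher in K36M, and all had intervals above 1. The highest was chr4:89136401-89142800, where the WT sum was 9.18 RPM and the K36M sum 15.6 RPM (1.70-fold, interval 1.46 to 1.97). Its 2 edge regions, of 400 bp, rose from 68 to 159 reads and from 38 to 120 reads. Its wide core regions had ratios of 1.09 and 1.28 with intervals that include 1. The higher level of this chain thus stood at its narrow outer regions.

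Narrow spikes made up 3 of the other 5. At chr4:79648601-79650200 (1.63-fold, 1.46 to 1.83), 2 of 6 regions of 200 bp went from 37.9 and 27.1 RPM per kb (WT) to 55.6 and 48.5 (K36M). At chr10:95540001-95540600 (1.63-fold, 1.40 to 1.90), the middle of 3 regions of 200 bp went from 38.2 (WT) to 62.8 RPM per kb (K36M), and its edges held 5 and 32 WT reads. At chr17:63086601-63087200 (1.29-fold, 1.08 to 1.55), the middle region held 200 of the 212 WT reads, and the median of the 3 log2 ratios was -0.26. In the chain at chr11:109678601-109680800 (1.55-fold, 1.30 to 1.86) the 1800-bp edge rose most, with 57 WT and 127 K36M reads. At chr2:113459001-113462600 (1.51-fold, 1.29 to 1.77) both directions met: 2 regions of 200 bp had ratios of 0.258 and 0.189, and 1400 bp away a 1400-bp and a 400-bp region had 1.84 and 1.81. All 4 counting intervals excluded 1, and the median of its log2 ratios was -0.35.

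Chains near dense runs were set apart by position. Within 1 Mb of a dense run lay 17 chains, with a median log2 ratio of 0.03 (interval -0.25 to 0.11), against -1.01 (-1.14 to -0.78) for the other 279. On chromosomes 5 and 8, the 12 such chains ranged in log2 ratio from -0.25 to 0.27. Their median densities were 7.47 RPM per kb (WT) and 7.56 (K36M). None of the 12 was 1.5-fold lower, and the counting interval lay wholly above 1 in 3 of them (against 3.36% of all units). On chromosome 11, 4 chains between 96028201 and 96165400 lay near a dense run with log2 ratios from -1.86 to -0.81, and 1 at the start of the chromosome stood at 0.05. Levels equal or slightly higher in K36M near a dense run were thus found on chromosomes 5 and 8 and at the start of chromosome 11. They were not found in the 4 other chains. Without the 17 chains, 140 of 279 were at least 2-fold lower.

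The 30 chains of narrow regions only also lay near equal levels, with a median log2 ratio of -0.20 (interval -0.69 to 0.11) and median densities of 8.43 (WT) and 7.29 RPM per kb (K36M). The group was mixed. At least 2-fold lower were 7 of the 30 (23.3%, against 33.2% of all units), the lowest of them, chosen here for its value, at chr1:194562001-194563200 with sums of 9.92 (WT) and 1.49 RPM (K36M). The interval lay above 1 in 4 of the 30, against 3.36% of all units. Chains holding both widths had a median of -1.08 (236 chains), and a 2-fold lower sum was found in 124 (52.5%).

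Chains close to each other differed less in ratio than chains in general. In 39 pairs of consecutive chains within 100 kb, the median absolute difference of the log2 ratios was 0.36, against 0.83 over all pairs of chains. Of these pairs, 10 joined chains near dense runs on chromosomes 5 and 8. The other 29 pairs had a median absolute difference of 0.48, against 0.82 over all pairs of chains away from dense runs. The 29 still include the pairs at chr11:96028201-96165400, near a dense run, whose chains are left out of the 0.82. Single pairs differed by up to 1.73, between chr11:8603801-8605600 (log2 ratio 0.02) and chr11:8660401-8663600 (-1.71). By chromosome, the median ranged from -1.70 on chromosome 4 (18 chains) to -0.24 on chromosome 8 (18 chains, 9 of them near dense runs). Every chromosome median was below 0.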

How the data were processed

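Ring1b ChIP-seq values of 2 libraries were used, 1 for each form of H3.3, and the 2 input libraries were not analysed here. Per the submitters' processing notes, reads were aligned with Bowtie 1.0.0 to mm9. For peak calling, counting and duplicate reads, the method is not given in the sources used here. Although the deposited columns are headed RPKM per the file headers, every value is a whole multiple of 1 step per library (0.0335 in WT, 0.0317 in K36M) whatever the width. All values were whole within 0.01 reads, so the deposited values were used as RPM and divided by these steps to give reads. A read crossing the border of touching regions may have been counted in both.

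Regions were sorted and joined at gaps of at most 2000 bp, and values were summed per chain. All region borders were multiples of 200 bp. Ratios used a pseudocount of 0.1 RPM. Intervals were computed from reads with SciPy 1.17.1 in Python 3.11.15, and the ratio of core to edge ratios used an exact conditional odds ratio. On simulated reads, the intervals of the ratio and the core minus edge difference were checked, the latter with a pseudocount of 0.01 instead of 0.1. Reads of each region were also compared by a binomial test (exact, two-sided; Benjamini-Hochberg adjusted over the table, threshold 0.05), which compares 2 libraries and, with 1 per form, has no replicate error. Among chains of at least 100 reads, those named have the 6 lowest or 6 highest ratios, the 6 highest WT sums, the 4 largest ranges or 9 regions. Members, lists and rules were chosen with earlier results of these data known. Alternatives varied the gap, the chain size, the pseudocount, a filter on regions under 20 reads, the centring and the choice of core.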

Additional observations from a re-analysis of the deposited data

How the results depend on the processing

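With 1 library per form, no replicate could be left out. No paired analysis was possible because each form of H3.3 has a single Ring1b library. Of 73 recomputed values over chains, 51 stayed close to the reported value, 18 moved and 4 reversed. Centring on the median of all regions gave a median log2 ratio of -0.26, with counts of 112 (1.5-fold lower), 69 (2-fold lower) and 47 (1.5-fold higher). The shares of all units after this centring were not computed. The 102 chains of 4 to 9 regions, which are fewer by construction, gave 56 (against 56.4% of all units), 49 (against 33.2%) and 3 (against 0.989%). At least 1.5-fold lower sums were thus no more frequent in them than among all units, while 2-fold lower sums were. Every region was lower in 65 of the 102, against 223 of all 296 chains. The median log2 ratio of the 102 chains was -0.73 (interval -1.22 to -0.33), an interval that includes the -0.69 of all units. The number at least 1.5-fold higher was also 3 with gaps of at most 1000 bp, with a pseudocount of 1 and with medians of the region ratios. A pseudocount of 1 gave a core minus edge difference of -0.073 (-0.18 for narrow cores between wide edges), a log2 WT density ratio of core to edge of 0.94 and a range of 0.56. Touching regions alone gave 1.46 for the density ratio and 0.78 for the range. Pooling values over chains gave a core minus edge difference of -0.067. With the widest region as core, the core minus edge difference was 0.35 and the log2 density ratio -1.17. With the region of most reads as core they were 0.13 and -0.45. By the median of the region ratios, chr2:113459001-113462600 stood at -0.35 and chr17:63086601-63087200 at -0.26, and 5 other named chains moved in size only. Pooling, leaving out chains near dense runs and the alternatives for narrow cores were chosen after seeing the data.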
